A study of Mus musculus with 8 samples.

Results

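Dividing fibroblasts in the stroma of mouse colon assembloids were described from single-cell RNA counts of 2 stromal libraries. A cell was taken as a fibroblast when it held at least 3 unique molecular identifiers (UMIs, the counted RNA molecules) of Col1a2, a collagen I chain, and none of the epithelial gene Epcam. A fibroblast was called cycling when it also held at least 2 UMIs of Mki67 and at least 2 of Top2a, proteins of dividing nuclei. By this rule 3180 of 15558 fibroblasts were cycling, 1769 of 7073 in library 1 and 1411 of 8485 in library 2. They were compared with the 3308 and 5035 fibroblasts that held no UMI of either gene, here called non-cycling, and the 1996 and 2039 fibroblasts in between were left aside. The cells were thus chosen by their UMIs of Mki67, Top2a, Col1a2 and Epcam, so these 4 genes are given as values with no test.

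Assembloids are cultures in which epithelial organoids of the mouse colon were embedded in Matrigel together with primary stromal cells of the colon, in a medium that held no Wnt surrogate, CHIR-99021, R-spondin 1 or noggin. That medium still held epidermal growth factor and the compound A83-01. All libraries came from C57BL/6 mice of 6 to 12 weeks, and the stromal cells of 2 mice were sequenced after live cells lacking the EpCAM protein had been sorted. The stromal cells had been expanded in flasks before they were combined with epithelium, so the fibroblasts described here had grown in culture. The other 6 libraries held assembloid, organoid or tissue epithelium, 2 of each, and the assembloid epithelium alone was tested against the fibroblasts. In the 8 libraries 77108 of 115502 barcodes passed the limits of at least 500 genes and at most 10% mitochondrial UMIs, 9020 and 9048 of them in the stromal libraries, whose passing cells held 161750159 and 139755286 UMIs.

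A dividing cell copies its DNA in S phase, passes through G2 and separates its chromosomes in mitosis. E2F transcription factors switch on genes of replication at the start of S phase, while B-Myb and the MuvB complex act on genes of G2 and mitosis through a promoter element called the cell-cycle genes homology region. In the intestine, fibroblasts also feed the neighbouring crypts with signals. Telocytes make BMP ligands and Wnt5a and carry Foxl1 and much Pdgfra, whereas trophocytes, which carry Cd34 and Cd81, make Grem1, a BMP inhibitor, and R-spondins, which strengthen Wnt signalling.

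Promoters are shown for 6 genes whose levels differed between the classes, chosen after their values had been seen, since they carry the letters that separated genes of mitosis from genes of replication. Plk1, Cdc20, Aspm and Cdk1 act in G2 and mitosis, and Mcm5 and Mcm6 are subunits of the replicative helicase. Each window runs from 250 bases before to 50 bases after the annotated start, from RefSeq on GRCm38.p6, and is written 5′ to 3′ in the direction of the gene. Capitals mark TTTGAA (the core of the homology region), CCAAT (the box bound by NF-Y) and the E2F-type words TTTCGCGC, TTTGGCGC and TTTCCCGC, searched on both strands, so that ATTGG is CCAAT on the other strand. Words of the E2F type can overlap, which joins 2 of them into 1 run in Mcm5 and in Mcm6.
Plk1, chr7:122159185-122159484, plus strand: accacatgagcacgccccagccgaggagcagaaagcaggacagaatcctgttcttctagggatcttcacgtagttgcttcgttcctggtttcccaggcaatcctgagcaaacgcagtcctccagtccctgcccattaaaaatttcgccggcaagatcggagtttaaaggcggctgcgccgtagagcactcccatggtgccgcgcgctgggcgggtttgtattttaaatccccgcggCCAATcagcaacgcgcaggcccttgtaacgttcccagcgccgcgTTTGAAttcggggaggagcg
Cdc20, chr4:118437294-118437593, minus strand: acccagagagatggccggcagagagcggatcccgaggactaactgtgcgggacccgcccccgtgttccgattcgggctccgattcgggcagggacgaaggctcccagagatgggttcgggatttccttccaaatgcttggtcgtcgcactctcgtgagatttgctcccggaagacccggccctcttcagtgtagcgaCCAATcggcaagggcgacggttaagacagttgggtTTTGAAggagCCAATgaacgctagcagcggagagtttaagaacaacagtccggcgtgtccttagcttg
Aspm, chr1:139454523-139454822, plus strand: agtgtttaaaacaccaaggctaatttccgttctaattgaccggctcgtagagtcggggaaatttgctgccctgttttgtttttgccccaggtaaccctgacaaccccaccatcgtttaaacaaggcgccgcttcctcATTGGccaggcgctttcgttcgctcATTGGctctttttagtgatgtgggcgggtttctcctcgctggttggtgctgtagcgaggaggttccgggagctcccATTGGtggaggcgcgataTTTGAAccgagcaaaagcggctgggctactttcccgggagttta
Cdk1, chr10:69352863-69353162, minus strand: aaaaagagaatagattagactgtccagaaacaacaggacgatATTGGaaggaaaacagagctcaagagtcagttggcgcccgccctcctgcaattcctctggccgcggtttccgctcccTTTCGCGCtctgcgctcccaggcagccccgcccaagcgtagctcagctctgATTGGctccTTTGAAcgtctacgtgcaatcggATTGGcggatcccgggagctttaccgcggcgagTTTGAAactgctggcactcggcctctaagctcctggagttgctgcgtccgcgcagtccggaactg
Mcm5, chr8:75109259-75109558, plus strand: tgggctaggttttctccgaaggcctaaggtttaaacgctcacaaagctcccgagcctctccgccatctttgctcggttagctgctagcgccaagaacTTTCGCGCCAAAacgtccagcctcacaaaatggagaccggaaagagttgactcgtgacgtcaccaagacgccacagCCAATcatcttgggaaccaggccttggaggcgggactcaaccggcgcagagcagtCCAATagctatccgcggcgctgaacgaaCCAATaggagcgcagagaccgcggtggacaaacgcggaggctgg
Mcm6, chr1:128359656-128359955, minus strand: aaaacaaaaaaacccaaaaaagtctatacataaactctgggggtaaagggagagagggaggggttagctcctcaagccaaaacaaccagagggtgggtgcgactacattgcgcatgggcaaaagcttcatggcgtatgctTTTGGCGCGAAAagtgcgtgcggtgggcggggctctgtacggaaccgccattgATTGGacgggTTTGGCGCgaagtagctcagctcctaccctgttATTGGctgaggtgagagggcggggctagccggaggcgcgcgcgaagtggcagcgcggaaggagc

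The 4 mitotic windows each held TTTGAA and CCAAT, whereas the Mcm5 and Mcm6 windows held E2F-type words and CCAAT but no TTTGAA. The Cdk1 window also held 1 E2F-type word. Windows were found for 55 of 64 listed G2 and mitosis genes and for 34 of 42 listed replication genes. TTTGAA stood in 37 of the 55 mitotic windows (67.3%), in 4 of the 34 replication windows (11.8%) against 20.2% of all 27025 genes with a window. TTTGAA and CCAAT stood together in 31 of the 55 (56.4%), against 7.97% of all genes. An E2F-type word stood in 14 of the 34 replication windows (41.2%), in 3 of the 55 mitotic windows (5.45%) and in 2.12% of all genes. Of 62 windows of clustered histone genes, 28 (45.2%) held TTTGAA together with CCAAT, and of 33 windows of matrix genes 1 did (3.03%). These matches describe letters in the windows and were not tested as binding sites.

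Cycling cells made up 25% of fibroblasts in library 1 (95% exact binomial interval 24 to 26) and 16.6% in library 2 (15.8 to 17.4), intervals that cover counting error only. The share was higher in library 1 than in library 2, and with 1 library per mouse no test of that gap was possible. Cells with more UMIs reach the limits more easily, and cycling cells held a median of 21024 and 22983 UMIs against 12201 and 11411 in non-cycling cells. Every cell was therefore also thinned to 5000 UMIs, which left out 5 and 0 cycling and 75 and 42 non-cycling cells that were shallower, and 1399 of 6975 fibroblasts (20.1%) and 1081 of 8433 (12.8%) then held at least 1 UMI of both genes. As a rough background, cells with at least 3 UMIs of Stmn2 and 2 of Elavl4, both neuronal genes, were counted in the same way. They were not kept apart from fibroblasts, so they can include fibroblasts and doublets, and they do not measure free RNA alone. Of these, 4 of 36 (11.1%, interval 3.11 to 26.1, median depth 19543.5 UMIs) held both Mki67 and Top2a in library 1. In library 2 it was 0 of 51 (median depth 13360), with an exact upper limit of 6.98%. The fibroblast share lay above this limit in library 2, while in library 1 its value lay within the wide interval of the 36 cells. The part of free RNA in these shares was not tested. By the same limits for Mki67 and Top2a, 9.65% and 16.6% of epithelial cells cycled in the 2 assembloid libraries, 71.2% and 55.8% in organoids and 7.28% and 5.19% in tissue, at other depths. Per the paper, organoids were maintained with Wnt surrogate, CHIR-99021, R-spondin 1 and noggin, which the assembloid medium lacked. The parts of medium and depth in these shares were not tested.

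The cells just inside the limits were less marked than those far inside. Among thinned cells whose lower count of the 2 genes was 2, the median sum of the G2 and mitosis list was 32 and 28 UMIs in libraries 1 and 2 (218 and 173 cells). Just outside, where the lower count was 1 and the other at least 2, it was 24 and 20 UMIs (328 and 256 cells). With at least 4 UMIs of each gene it was 51 and 54 (1339 and 1108 cells), and in non-cycling cells 3 and 2. Cells just outside the limits thus held much of the mitotic RNA of those just inside, so the cells in between the classes include dividing fibroblasts. Median counts were 6 and 7 UMIs of Mki67 and 17 and 20 of Top2a per cycling cell.

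Collagen genes of fibroblasts stood high in both classes. In CPM, the counts of a class sum scaled to a common library size, Col1a2, by which the cells were chosen, stood at 1736 and 2526 in non-cycling and 1591 and 2028 in cycling cells of libraries 1 and 2. Col3a1, a collagen III chain, stood at 3411 and 5416 in non-cycling and 2962 and 3730 in cycling cells. Lum, another fibroblast marker, stood lower, at 64.3 and 294 CPM in non-cycling and 45.9 and 140 CPM in cycling cells. Dcn and Pdgfra, given below, were also lower in the cycling sums. Markers of most other cell types were low: the epithelial markers summed to at most 116 CPM in a class sum, none of the 13 tested was called between the classes (2 were called lower after depth matching), and of 12 immune markers 8 were too low to test. Ptprc, the marker of all blood cells, had no UMI in the 1764 and 1411 thinned cycling cells. The exact upper limits for the share of cells with a UMI were 0.209% and 0.261%. The 9 markers of pericytes and interstitial cells stood higher, at 334 and 267 CPM in non-cycling and 285 and 185 CPM in cycling sums. The cycling sums held 46.4 and 50.3 CPM of 11 neuronal markers against 63.2 and 61.4 CPM in non-cycling sums. The 12 endothelial markers summed to 39.8 and 77.2 CPM in cycling and 33.8 and 36.6 CPM in non-cycling sums, the larger difference being in library 2. Barcodes shared by 2 libraries numbered 6 to 76, 28 of them between the stromal libraries, and 59 cycling fibroblasts had a barcode that another library also held. No doublet caller was run, and 1588 and 1086 cycling cells remained when the deepest 6% of cells of each library were left out.

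UMIs were summed per library and class, and the 4 sums were compared with edgeR's quasi-likelihood test with the library as a block. Of 14762 genes tested, 6346 were called at a Benjamini-Hochberg adjusted p under 0.05 (43.0%), 3336 higher in cycling cells (22.6%) and 3010 lower (20.4%), with a median log2 fold change of -0.03. At least 2-fold differences were called for 871 genes higher (5.90%) and 700 lower (4.74%). The count rests on both libraries, since 1296 genes were called without library 1 and 681 without library 2, in fits that took the spread from the epithelial libraries. Because cycling cells were deeper, the comparison was repeated with non-cycling cells drawn to the same depths, 320 and 120 cells, and this called 17.4% of 13706 genes higher and 13.5% lower. All depth-matched counts of lists below are to be read beside these shares. That fit holds fewer non-cycling cells, drawn from the deeper part of their class. Their median depth was 21031.5 and 22843 UMIs, against 12201 and 11411 in all non-cycling cells. The median log2 fold change of the neuronal markers went from -1.34 to -2.82 with them, so these cells differed from the rest in more than depth. Which of this moved a call that was lost or turned in that fit was not tested.

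**Figure D1:**
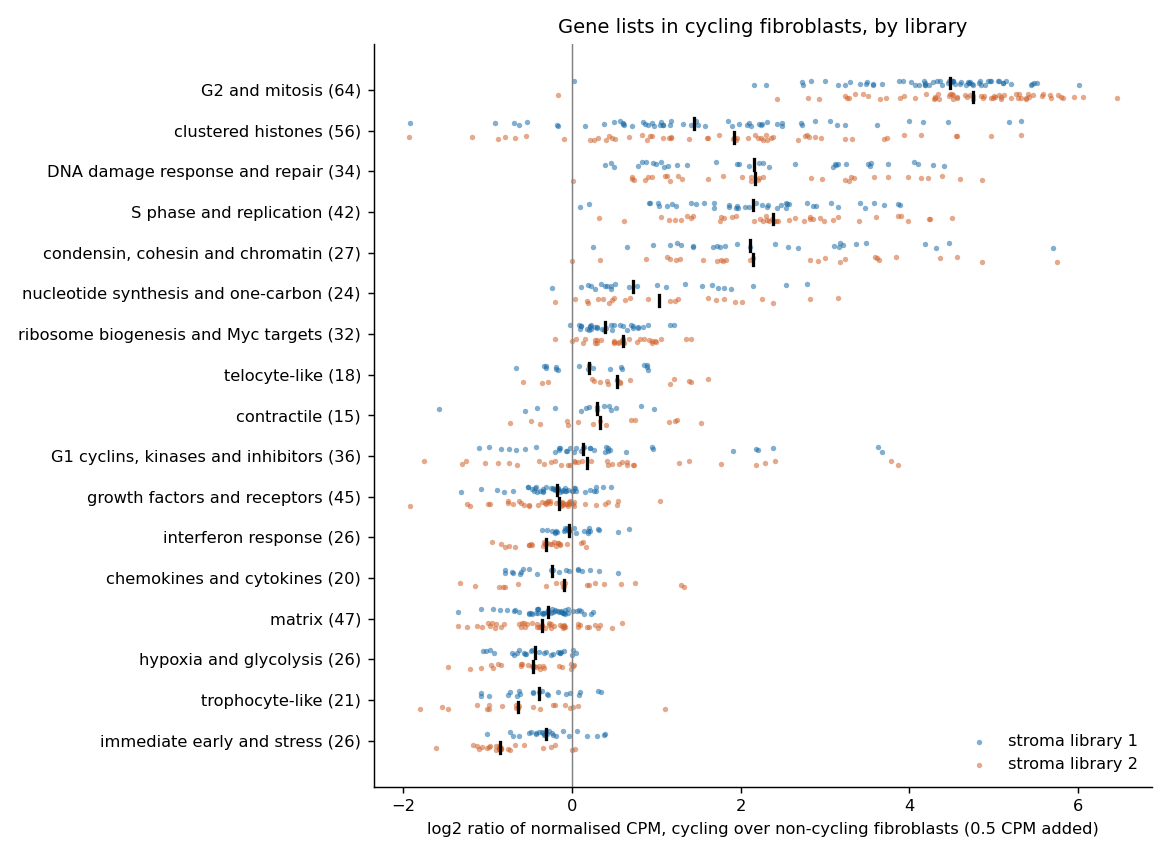
Log2 ratio of cycling to non-cycling fibroblasts (horizontal axis, CPM with 0.5 CPM added) for the genes of each list (vertical axis, number of genes in brackets), with 1 point per gene and library and a black bar at the median. The median of the G2 and mitosis list stood highest at 4.48 and 4.76, and that of the trophocyte-like list lay below 0 in both libraries, at -0.40 and -0.64.

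Genes of G2 and mitosis showed the widest differences. Since Mki67 and Top2a belong to the same phase, their levels follow from how the cells were chosen and are given as a description. Of 64 genes, 63 were called higher in cycling cells, beside 22.6% of all genes, the median being 4.98 on the log2 scale and 4.89 after depth matching, with 63 called again. Pttg1 (securin, which holds the separation of sister chromatids in check) was the 1 exception, at 41.8 and 42.9 CPM in non-cycling and 42.4 and 38.1 CPM in cycling cells. Nusap1, a protein of the spindle microtubules, stood at 2.68 and 1.8 CPM in the non-cycling sums of libraries 1 and 2 and at 204 and 202 CPM in the cycling sums, a log2 difference of 6.52 ± 0.14 (SE). Knl1, of the outer kinetochore, stood at 2 and 1.29 against 111 and 118 CPM (log2 6.14 ± 0.16, SE). The 2 libraries lay close to each other and far from the other class for both genes. The motor Cenpe, which carries chromosomes along the spindle, stood at 3.87 and 2.71 against 199 and 198 CPM. Plk1, the polo kinase, stood at 2.9 and 1.72 against 113 and 112 CPM, and Cdc20, the activator of the anaphase-promoting complex, at 8.1 and 4.04 against 144 and 141 CPM. Cdk1, the mitotic kinase, was already present in non-cycling cells at 33.3 and 27.4 CPM and stood at 402 and 367 CPM in cycling cells. Its log2 difference (3.66 ± 0.09, SE) was smaller than that of Plk1 (5.63 ± 0.16, SE).

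Replication genes were higher in cycling cells by less. Their levels, too, follow in part from how the cells were chosen, by 2 genes of G2 and mitosis. Single non-cycling cells held up to 30 and 39 replication UMIs after thinning, against medians of 12 and 13 in cycling cells of libraries 1 and 2. Of 42 genes 41 were called higher, beside 22.6% of all genes, with a median of 2.36, or 2.11 with 40 called after depth matching, and Ung, a uracil glycosylase, was not called. E2f8, a repressing E2F factor, stood at 1.43 and 1.01 CPM in non-cycling and 24.6 and 27.7 CPM in cycling cells (log2 4.44 ± 0.16, SE). Mcm10, which helps load polymerase at origins, stood at 1.1 and 0.924 against 17.3 and 22 CPM, and Tk1, the thymidine kinase, at 12.3 and 7.08 against 186 and 172 CPM. The helicase subunits shown above differed less. Mcm5 stood at 7.7 and 6.42 against 40.5 and 48.2 CPM (log2 2.65 ± 0.12, SE), and Mcm6 at 28.5 and 28.1 against 58.8 and 69.7 CPM (log2 1.17 ± 0.09, SE). E2f1, an activating factor, stood at 26.4 and 19.5 against 30.3 and 24.5 CPM, a small log2 difference of 0.26 whose call was lost after depth matching at 0.24 (adjusted p = 0.145).

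Proteins that fold and hold chromosomes and proteins of DNA repair followed, and the choice of the cells bears on their levels in the same way. In the list of condensin, cohesin and chromatin genes, 26 of 27 were called higher beside 22.6% of all genes, with a median of 2.13 (27 of 27 after depth matching). Esco2, which acetylates cohesin in S phase, stood at 1.03 and 0.957 against 79.1 and 78.1 CPM, and Stag2, a cohesin subunit of all phases, was not called at 52 and 73.1 against 61.6 and 73.1 CPM. In the repair list, 33 of 34 were called higher with a median of 2.40, Rad51b being the exception. After depth matching 33 were called higher, Rad51b now among them (log2 0.98 against 0.25 before, adjusted p = 0.000559), so another member was not called. Rad51ap1, a factor of recombination repair, stood at 1.83 and 1.5 against 49.1 and 57.6 CPM.

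Most clustered histone genes were higher in cycling cells and a few were lower. Of 67 genes, 56 passed the filter on low counts, 45 were called higher and 5 lower (22.6% and 20.4% of all genes were), and the median was 2.65. Some passed through their cycling sums alone and could only be called higher. Hist1h2an, for example, stood at 0.066 and 0.0165 CPM in non-cycling and 2.68 and 2.8 CPM in cycling sums. With 0.5 CPM added the list median was 1.44 in library 1 and 1.92 in library 2. After depth matching 35 of 54 were higher and 5 lower. Most of these genes lack a poly(A) tail in their mature RNA and share near-identical copies, so their counts from a poly(A)-primed assay are uncertain. Hist1h2ap, an H2A gene, stood at 6.27 and 16.1 CPM in non-cycling and 271 and 663 CPM in cycling cells, and the linker gene Hist1h1b at 16.3 and 23.1 against 606 and 738 CPM. The 5 genes on the other side were Hist1h2bc, Hist1h1c, Hist3h2a, Hist2h3c1 and Hist2h3c2. Hist1h2bc, an H2B gene, stood at 173 and 168 CPM in non-cycling and 45.3 and 43.5 CPM in cycling cells, so it fell by 1.95 on the log2 scale (SE 0.072). Hist1h1c, a linker gene, stood at 76.4 and 147 against 47.3 and 64.5 CPM. Both fell in each library, in the cells where most histone genes were higher.

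**Figure D2:**
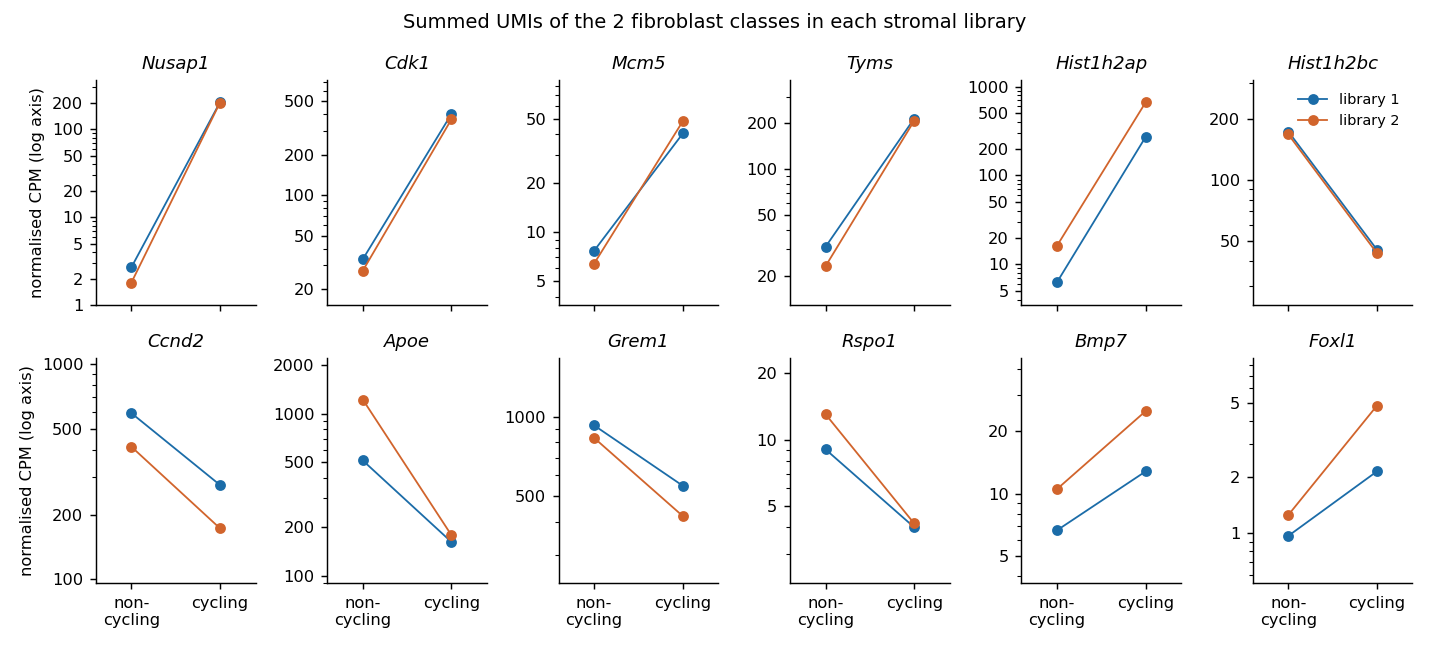
Normalised CPM (log axes) of 12 genes in the non-cycling and cycling class sums, with 1 line for each stromal library. Nusap1 ran from 2.68 and 1.8 CPM to 204 and 202 CPM, while Hist1h2bc ran from 173 and 168 CPM down to 45.3 and 43.5 CPM.

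Genes that feed growth were higher as well. Of 24 genes for nucleotide synthesis and one-carbon metabolism, 21 rose, beside 22.6% of all genes, with a median of 0.92, and Impdh1, a step of guanine nucleotide synthesis, fell (18 and 1 after depth matching). Tyms, the thymidylate synthase, stood at 30.9 and 23 against 215 and 208 CPM (log2 2.98 ± 0.11, SE, adjusted p = 3.82e-07). Of 32 ribosome biogenesis genes, 24 rose and none fell, with a median of 0.49 (20 and 1 after depth matching). The nuclear transport proteins Ran and Ranbp1 rose by the same log2 value, Ran from 485 and 377 to 1081 and 1002 CPM (1.27 ± 0.10, SE) and Ranbp1 from 249 and 208 to 576 and 529 CPM (1.27 ± 0.09, SE). Npm1, an abundant nucleolar protein, did not pass the test at 1557 and 1482 against 1535 and 1284 CPM.

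Regulators of G1, the phase before replication, moved in both directions. Of 36 genes 16 rose and 8 fell (12 and 11 after depth matching), and the median was 0.11. The 8 falls are a share near the 20.4% of all genes that fell, while 22.6% of all genes rose. After depth matching 13.5% of all genes fell and 17.4% rose, so the 11 falls are then a share above that of all genes. Ccnd2, a D cyclin, stood at 591 and 413 CPM in non-cycling and 274 and 173 CPM in cycling cells and fell by 1.19 on the log2 scale (SE 0.085, adjusted p = 2.38e-05). Btg2, an antiproliferative gene, fell from 194 and 447 to 122 and 181 CPM, and Gas6, a ligand of the TAM receptors first found in arrested fibroblasts, fell from 129 and 187 to 64.7 and 55.3 CPM. Both genes were lower in the cycling sums of each library. The repressor E2f7 rose from 0.704 and 0.743 to 14.4 and 16.5 CPM, and Cdkn3, a phosphatase of cyclin-dependent kinases, from 7.22 and 5.94 to 97.7 and 93.5 CPM. The kinase inhibitors Cdkn2c and Cdkn2d rose by 2.00 ± 0.11 and 2.05 ± 0.09 (SE) on the log2 scale, while Cdkn2b fell by 0.77 (SE 0.07). Ccne1, the cyclin that starts replication, rose from 28.4 and 21.9 to 53.9 and 60.2 CPM.

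The cycling fibroblasts were not alike, and they were ranked by their thinned G2 and mitosis UMIs into 4 groups of equal size in each library. Since this list made the ranks, its rise is a description. From the lowest to the highest group its mean was 22.7, 39.9, 57.2 and 86.5 UMIs per cell in library 1 and 21.5, 40.2, 58.6 and 88.0 in library 2. Replication UMIs ran the other way, from 20.7 through 17.9 and 12.1 to 7.77 in library 1 and from 23.1 through 18.6 and 12.3 to 7.77 in library 2. Histone UMIs were highest in the second group of each library, at 11.5 and 17.4, and lowest in the fourth, at 5.19 and 8.83. Dividing fibroblasts therefore ranged from cells rich in replication RNA to cells rich in mitotic RNA, in the same order in both libraries. Single genes are given as examples, and Cdc20 is itself on the list that made the ranks. Ccne2, an E cyclin, had a mean of 0.449 and 0.497 UMIs in the lowest groups and of 0.0204 and 0.0113 in the highest, and Pcna, the sliding clamp of replication, of 1.42 and 1.5 against 0.288 and 0.255. Cdc20 went from 0.138 and 0.125 to 1.58 and 1.49. Ccnd2 went from 1.86 to 0.964 in library 1 and from 0.963 to 0.751 in library 2. Matrix UMIs stayed within 124 to 133 in library 1 and 130.4 to 135 in library 2 over the 4 groups. The trophocyte-like list ranged from 14.7 to 15.9 and from 15.4 to 16, and the telocyte-like list from 4.41 to 5.13 and from 4.98 to 5.98. Each cell had the same number of UMIs after thinning, so a higher sum of 1 list leaves less room for the others.

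**Figure D3:**
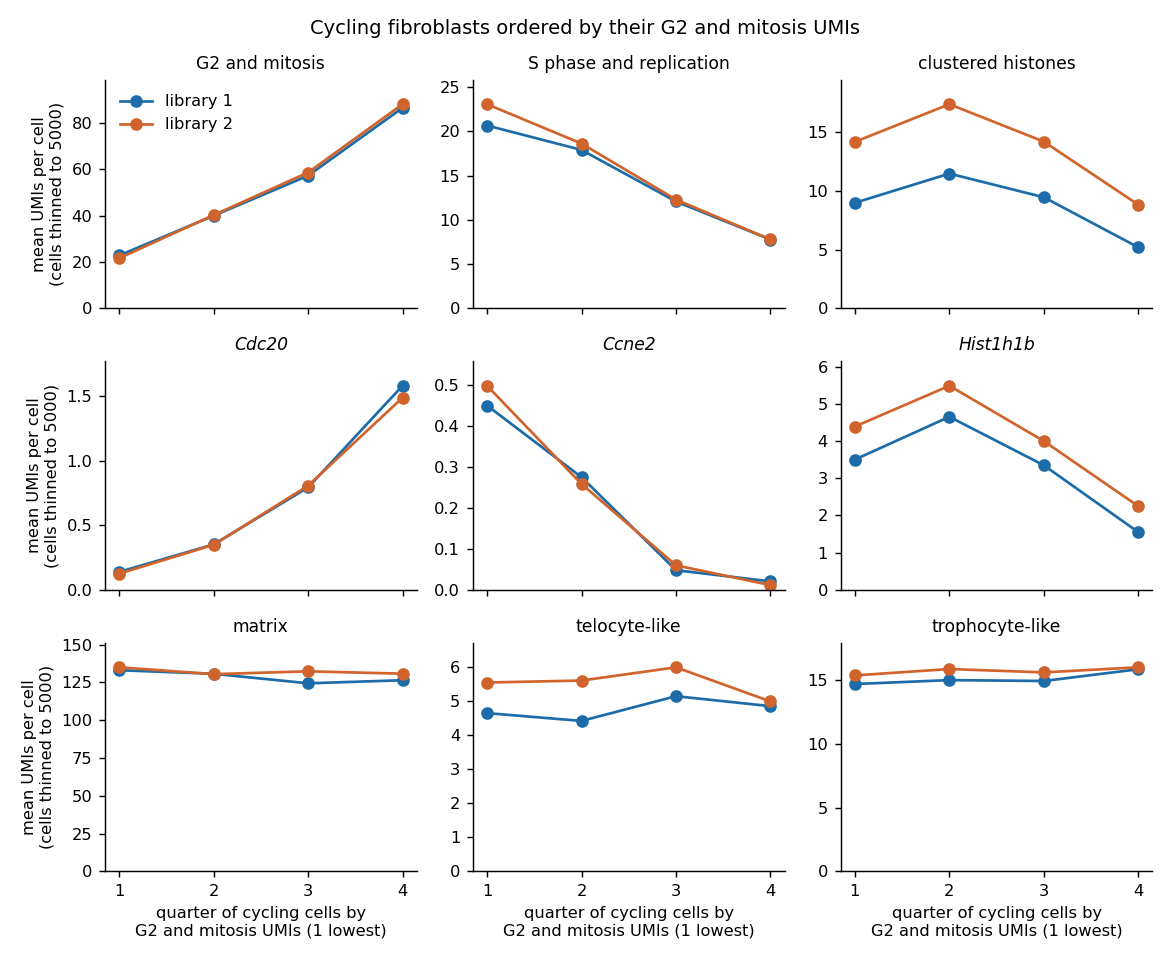
Mean UMIs per cell after thinning to 5000 UMIs, over 4 groups of cycling fibroblasts ranked by their G2 and mitosis UMIs, with 1 line for each library and 1 panel for each list or gene. Replication UMIs fell from 20.7 and 23.1 in the lowest group to 7.77 in the highest group of both libraries, and histone UMIs were highest in the second group.

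More telocyte-like genes rose than fell, while 11 of 21 trophocyte-like genes fell and none rose. The telocyte-like sum was 990.1 and 923 CPM in non-cycling and 977 and 1139 CPM in cycling cells, so it was higher in library 2 and not in library 1. Of 18 telocyte-like genes 11 rose and 3 fell (22.6% and 20.4% of all genes did), with a median of 0.32. After depth matching 6 rose and 3 fell (17.4% and 13.5% of all genes did), with a median of 0.17. The falls were then a share near that of all genes. Foxl1, the transcription factor of telocytes, stood at 0.968 and 1.25 CPM in non-cycling and 2.15 and 4.85 CPM in cycling cells (log2 1.59 ± 0.26, SE, adjusted p = 0.00224), and its depth-matched difference of 1.23 did not pass (adjusted p = 0.0504). The ligand Bmp7 rose from 6.67 and 10.5 to 12.8 and 25 CPM (log2 1.10 ± 0.11, SE, adjusted p = 0.000154). Bmp5 rose from 7.02 and 8.12 to 13.5 and 18.7 CPM, and both calls held after depth matching. Bmp2 rose from 57.2 and 39.4 to 86.5 and 106 CPM, but its depth-matched difference was 0.16 (adjusted p = 0.467). The Notch ligand Dll1 rose from 2.93 and 2.99 to 5.83 and 8.58 CPM, at low levels. Wnt5a rose from 53.5 and 39.8 to 56.7 and 64.6 CPM and lost its call after depth matching (log2 0.15, adjusted p = 0.276). Of the 11 rises, those of Bmp5, Bmp7, Dll1, Wnt5b and Foxf1, a forkhead factor of gut mesenchyme, were called with depth-matched cells too. The rises of Frzb, a secreted Wnt antagonist, and of Cxcl14, a chemokine, were lost, at -0.09 (adjusted p = 0.401) and 0.00 (adjusted p = 0.996). The 3 genes that fell were Pdgfra, Bmp3 and F3, and Bmp3 reversed after depth matching, from -0.28 to 0.66 (adjusted p = 0.00555). After depth matching the 3 that fell were Pdgfra, F3 and Wnt4, a Wnt ligand, which stood at 62.5 and 28 CPM in non-cycling and 50.5 and 40.7 CPM in cycling cells (log2 0.09, adjusted p = 0.676) and at -0.70 with depth-matched cells (adjusted p = 1.84e-05). Pdgfra, the receptor whose high level marks telocytes, stood at 219 and 282 against 177 and 233 CPM. The endothelial markers moved with the rise in library 2. Cldn5, a tight junction gene of vessels, stood at 0.11 and 2.06 CPM in non-cycling and 0.701 and 9 CPM in cycling sums and Flt4, a lymphatic receptor, at 0.374 and 0.66 against 0.725 and 3.53 CPM. Of the 12 endothelial markers, 8 rose, with a median of 0.09 in library 1 and 1.25 in library 2, and of 9 tested after depth matching Egfl7, a vessel factor, was called higher. Their part in the telocyte-like values was not tested.

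Of the 23 trophocyte-like genes, 21 passed the filter, 11 fell and none rose, with a median of -0.57 and, after depth matching, 10 falls among 20, 1 rise and a median of -0.40. Over all genes 20.4% fell, and 13.5% fell after depth matching. Grem1 stood at 927 and 831 CPM in non-cycling and 547 and 420.1 CPM in cycling cells and fell by 0.88 on the log2 scale (SE 0.10, adjusted p = 0.000299). Rspo1, an R-spondin, fell from 9.02 and 13 to 3.99 and 4.15 CPM. Both genes were lower in the cycling sums of both libraries. C3, the complement factor, fell from 137 and 389.5 to 69.3 and 111 CPM, and Gdf10, a TGF-beta relative, from 10.7 and 26.8 to 4.81 and 13.1 CPM. Cd81 fell from 553 and 438 to 403 and 277 CPM (adjusted p = 0.00168). Rspo3 fell from 110.2 and 174 to 98.4 and 97.7 CPM, mainly in library 2, and did not pass after depth matching (log2 -0.17, adjusted p = 0.189). Il33, an alarmin, Sfrp1, a secreted Wnt inhibitor, and Ackr4, a scavenger of chemokines, lost their calls in the same way, at -0.06, -0.17 and -0.40, while Mgp, Mfap5 and Crabp1 were called lower with depth-matched cells. Cd34 did not pass the test at 22.5 and 30.3 against 27.9 and 26.2 CPM, and after depth matching it was the 1 gene of the list that rose (0.39, adjusted p = 0.0229).

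Markers of other cells near fibroblasts differed by type, beside 22.6% of all genes that rose and 20.4% that fell. Of 11 neuronal markers 7 fell and Tubb3, a neuronal tubulin, rose, of 8 glial markers 3 fell, Sox2 and Ngfr among them, and of 4 immune markers Lyz2 and C1qa fell. Of 8 pericyte and interstitial cell markers 5 fell (Rgs5, Notch3, Kcnj8, Abcc9 and Etv1) and Cspg4 rose. After depth matching 10 of 11 neuronal, 2 of 4 glial and 1 of 2 immune markers fell and none rose, Tubb3 stood at -0.11 (adjusted p = 0.707), and no pericyte marker was called, the 5 that had fallen lying between -0.95 (Rgs5) and -0.19 (Kcnj8) and Etv1 at -0.23 against -0.21 before. Stmn2, a neuronal gene, stood at 11.6 and 8.48 CPM in non-cycling and 2.92 and 1.21 CPM in cycling sums. Their part in the other values was not tested.

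Of 15 contractile genes 7 rose and Des, the muscle filament desmin, fell, with a median of 0.31, beside 22.6% of all genes that rose. After depth matching 6 of 14 rose and 1 fell, beside 17.4% and 13.5% of all genes, with a median of 0.24. Acta2, smooth muscle actin, rose from 69.7 and 49.1 to 123 and 117 CPM (log2 1.03 ± 0.11, SE, adjusted p = 0.000211), and Smtn, which binds actin filaments, from 12.7 and 9.14 to 25.3 and 27.3 CPM. Myh11, the smooth muscle myosin, was near its floor at 1.43 and 1.11 against 0.943 and 1.04 CPM.

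The share of cycling cells was also compared between fibroblasts with and without a UMI of single genes, after thinning, so that depth was equal, a cell being counted as cycling when it held at least 1 UMI of Mki67 and 1 of Top2a. Among cells with Bmp5, 29.0% cycled in library 1 and 22.8% in library 2, against 19.7% and 12.3% of cells without it. For Bmp7 the shares were 25.7% and 22.3% against 19.8% and 12.3%, and for Acta2 25.6% and 19.5% against 18.6% and 11.4%. These shares were higher with the gene in both libraries, but the intervals of Bmp7 in library 1 touched (20.7 to 31.2 with, 18.9 to 20.8 without), and since cells of 1 library are not replicates the differences were not tested. For Grem1 the shares were 19.2% and 11% among cells with a UMI against 23.4% and 18.0% without, and for Cd81 18.7% and 10.8% against 24.8% and 17.8%. A UMI of Foxl1 was left in 43 and 79 thinned cells, of which 10 and 18 cycled (23.3%, interval 11.8 to 38.6, and 22.8%, interval 14.1 to 33.6), against 20.04% and 12.7% of cells without it, so a difference was not detectable in library 1. Bmp2 and Wnt5a also gave higher shares with the gene, 22.3% and 20.6% against 19.7% and 11.9% for Bmp2 and 21.4% and 16.8% against 19.7% and 12% for Wnt5a, with overlapping intervals in library 1 (19.7 to 24.9 against 18.7 to 20.7, and 19.3 to 23.5 against 18.6 to 20.8). Pdgfra gave 19.8% and 12.3% with against 20.4% and 13.8% without, Rspo3 gave 20.2% against 20% in library 1 and 10.3% against 14.7% in library 2, and of 17 and 27 cells with Sox6, a transcription factor, 1 and 6 cycled. Cd34 gave no common direction, at 21.6% against 19.9% in library 1 and 11.3% against 13% in library 2. Without thinning depth was not equal, and several lower shares turned to higher ones. The share with Grem1 was then 25.6% against 18.0% in library 1 and 16.8% against 15.2% in library 2, and with Pdgfra 26.4% against 17.1% and 17.8% against 7.73%. With Cd81 it was 25.2% against 23.5% in library 1 but still lower in library 2, at 15.7% against 21.9%. With Cd34 it turned in library 2, to 21.1% against 15.1%, and in library 1 it stayed higher, at 34.0% against 22.1%. Since thinned cells share 1 total, RNA of cycling genes takes room from other genes, and its part in these shares was not tested.

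**Figure D4:**
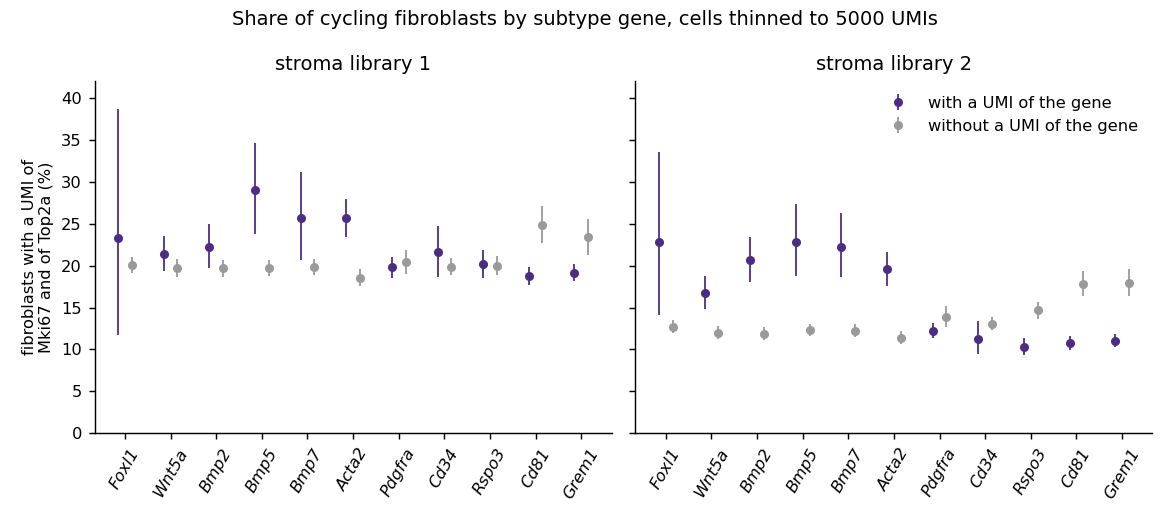
Share of fibroblasts with at least 1 UMI of both Mki67 and Top2a (percent, vertical axis) among cells with and without a UMI of each gene, after thinning to 5000 UMIs, by library, with 95% exact binomial intervals as bars. Cells with Bmp5 stood at 29.0% and 22.8%, above cells without it, and cells with Grem1 at 19.2% and 11%, below cells without it (25.6% and 16.8%, above cells without it, when cells were not thinned).

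Extracellular matrix genes were lower in cycling fibroblasts. Of 47 genes 26 fell and none rose, with a median of -0.32, where 20.4% of all genes fell, and after depth matching 33 fell, where 13.5% of all genes did, and Loxl2, a collagen crosslinking enzyme, rose. Among the 33 were Tnc, Col5a3 and Timp1, which stood at 0.17, 0.19 and 0.21 before depth matching without a call and at -0.76, -0.40 and -0.23 after it (adjusted p = 1.15e-06, 0.0431 and 0.0296). Lox, which crosslinks collagen, stood at 202 and 189.9 CPM in non-cycling and 105 and 94.7 CPM in cycling cells and fell by 0.98 on the log2 scale (SE 0.072, adjusted p = 2.85e-05), and the proteoglycan Dcn fell from 1447 and 2372 to 934 and 1090.2 CPM. The drop was similar in both libraries for Lox and larger in library 2 for Dcn. The matrix list as a whole summed to 29582 and 34555 CPM in non-cycling and 25772 and 25394 CPM in cycling sums. Collagen I itself, the gene by which fibroblasts were chosen, is given above with no test.

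Of 45 growth factor and receptor genes 17 fell and 3 rose, with a median of -0.21, where 20.4% of all genes fell and 22.6% rose (21 and 3 of 44 after depth matching). Tgfb2, a TGF-beta ligand, fell from 80.8 and 106 to 32.1 and 27.6 CPM (log2 -1.64 ± 0.13, SE, adjusted p = 4.26e-05), and Fgf10, which acts on epithelium, from 54.6 and 80.5 to 31 and 34.4 CPM. Igf2, a growth factor gene, was near its floor. The 3 that rose were Bmp4, Tgfb1 and Lef1, the last a Wnt target whose direction turned after depth matching (0.75 against -0.36, adjusted p = 0.303). Bmp4 rose from 148 and 214 to 204 and 313 CPM.

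Genes of low oxygen and of sudden stress were lower in the class sums. Of 26 hypoxia and glycolysis genes 20 fell and none rose (median -0.49), beside 20.4% of all genes that fell. After depth matching 14 of this list fell, beside 13.5% of all genes. Single cells of the 2 libraries differed in this list: the median after thinning was 46 UMIs in non-cycling and 42 in cycling cells of library 1 but 29 and 32 in library 2, where the mean (41.8 and 36.7) and the upper quartile (50 and 44) were lower in cycling cells. Ankrd37, a target of hypoxia-inducible factor, fell from 27.1 and 19.7 to 14 and 6.79 CPM, and Adm, adrenomedullin, from 45.2 and 31.4 to 21.6 and 15.8 CPM. Both are induced when oxygen is low. Of 26 immediate early and stress genes 20 fell and none rose (median -0.63), beside the same 20.4% of all genes. After depth matching 11 fell, beside 13.5% of all genes, and Atf4, the factor of the integrated stress response, rose (median -0.32). Atf3, a stress factor, fell from 13.6 and 55.8 to 6.48 and 18 CPM (log2 -1.40 ± 0.13, SE, adjusted p = 9.48e-05). The drop of this list was larger in library 2 (median -0.86) than in library 1 (-0.31). Of 26 tested interferon genes 8 fell, beside 20.4% of all genes, and none rose (8 and 1 after depth matching), the median being -0.03 in library 1 and -0.31 in library 2, with Ifit3 going from 16.9 and 121 to 13.1 and 67 CPM. The interferon list stood higher in library 2 (5572 and 4171 CPM) than in library 1 (1722 and 1609 CPM) in both classes. Of 20 chemokine and cytokine genes 9 fell and 3 rose (Ccl8, Il11 and Il1rl1), beside 20.4% and 22.6% of all genes. After depth matching 11 fell and 1 rose, beside 13.5% and 17.4% of all genes. Ccl8, a monocyte attractant, stood at 154 and 192 against 179 and 249.5 CPM, and its direction turned after depth matching (0.29 against -0.37, adjusted p = 0.000973). Ccl2, another monocyte attractant, stood at 0.40 without a call (adjusted p = 0.064) and at -0.50 after depth matching (adjusted p = 0.00011). Cxcl12, which attracts immune and stem cells, fell from 166 and 553 to 117 and 221 CPM and lost its call after depth matching (log2 -0.34, adjusted p = 0.069), as did Il11 (0.08, adjusted p = 0.718), a cytokine of stressed fibroblasts. Il1rl1, the receptor of Il33, rose by 0.96 but stood at -0.64 after it (adjusted p = 0.00512).

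Outside the lists, the called genes with the widest differences were again of 2 kinds. Among those higher were Aspm, a spindle pole protein, at 1.61 and 0.776 against 70.1 and 75.9 CPM, Sgo2a, which guards cohesin at centromeres, at 1.91 and 1.58 against 103 and 105 CPM, and Pclaf, a partner of Pcna, at 11.6 and 9.24 against 453 and 504 CPM. Among those lower was Apoe, the lipid carrier, at 514 and 1221 against 162 and 178 CPM, which fell by 2.23 on the log2 scale (SE 0.23, adjusted p = 0.00018). Ogn, a matrix proteoglycan, fell from 53.1 and 144 to 21.6 and 32.1 CPM, and the noncoding RNA Meg3 from 147 and 201 to 57.5 and 53.5 CPM. Apoe and Ogn fell further in library 2 than in library 1. Mxd4, an antagonist of Myc, fell from 60.6 and 84.9 to 22.4 and 30.2 CPM, while its relative Mxd3 stood at 2.22 and 1.65 against 70.1 and 71.1 CPM. Both calls of Mxd4 and Mxd3 held after depth matching, at -1.43 and 4.91.

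The same contrast was made in the epithelium of assembloids, with at least 3 UMIs of Epcam and none of Col1a2, and the 2 contrasts were set against each other in 1 fit of 8 sums. Of 17935 genes, 2575 had a more positive difference in fibroblasts (14.4%) and 529 a more negative one (2.95%). The call count rests on the stromal libraries: 747 genes were called without library 1 and none without library 2 (3941 at an unadjusted p under 0.05 by edgeR), while DESeq2 called 2336 with all libraries. Of 64 mitotic genes, 38 had a more positive difference in fibroblasts and none a more negative one, and of 42 replication genes 18 and none. The median of the mitotic list was 4.98 in fibroblasts and 2.59 in epithelium, and that of the replication list 2.36 and 1.66. Nusap1 stood at 2.68 and 1.8 CPM in non-cycling fibroblasts but at 28.8 and 4.15 CPM in non-cycling epithelial cells, and at 204 and 106 CPM in cycling epithelial cells. The difference of its 2 log2 changes was 3.07 ± 0.62 (SE, adjusted p = 0.0283), and that of Knl1 was 4.22 ± 0.64 (SE, adjusted p = 0.0138). The mitotic list summed to 743 and 584 CPM in non-cycling fibroblasts and to 1794 and 976 CPM in non-cycling epithelial cells. Mitotic RNA was thus a larger share of the UMIs in epithelial cells without a UMI of Mki67 or Top2a. These are shares and not amounts per cell, since depth differed. In cycling cells it summed to 9888 and 10003 CPM in fibroblasts and to 5777 and 4885 CPM in epithelium. Non-cycling epithelial cells had a median of 3354 UMIs in library 1 and 13222 in library 2. With non-cycling cells drawn to the depths of cycling cells in each of the 4 libraries, 1265 of 16116 genes had a more positive difference in fibroblasts (7.85%) and 858 a more negative one (5.32%), so the excess of positive differences was smaller. Of the 64 mitotic genes 34 then had a more positive difference and 1 a more negative one (median difference 1.36, against 2.28 with all cells), and of the 42 replication genes 8 and 6 (median -0.09, against 0.71). Nusap1 and Knl1 remained called, at 2.15 and 3.22. The epithelium was also counted with another version of Cell Ranger, whose part was not tested. Of 47 matrix genes 14 had a more positive and 2 a more negative difference in fibroblasts, but none and 6 with depth-matched cells, and the list summed to 264 to 729 CPM in the 4 epithelial sums, far below the fibroblast sums.

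**Figure D5:**
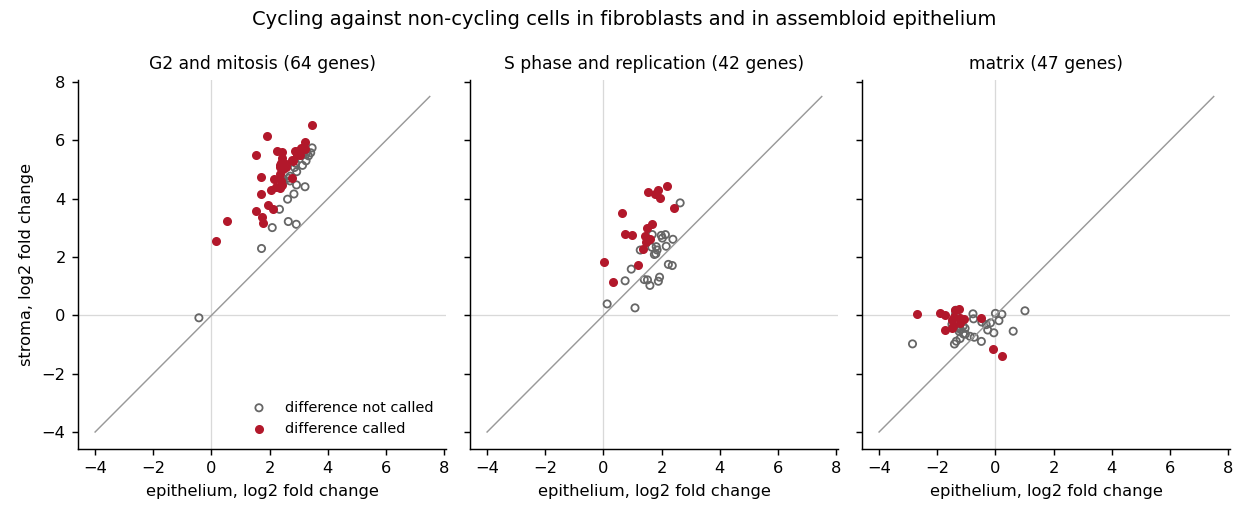
Log2 fold change of cycling against non-cycling cells in assembloid epithelium (horizontal axis) and in fibroblasts (vertical axis), with 1 point per gene of 3 lists, filled where the difference of the 2 changes was called, and a line where both are equal. The mitotic genes lay mostly above the line, with medians of 4.98 in fibroblasts and 2.59 in epithelium, and 38 of the 64 differences were called (34 with depth-matched cells).

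Fibroblasts were also caught in the 2 libraries sorted for assembloid epithelium, which the rule did not use. There 5 of 221 fibroblasts (2.26%, interval 0.739 to 5.20) and 2 of 120 (1.67%, interval 0.202 to 5.89) were cycling, below the stromal libraries. The classes were split by the same limits on Mki67 and Top2a, so the mitotic values follow from how the cells were chosen. The 5 and 2 cells held 133 and 112 mitotic UMIs per 10000 UMIs, against 7.98 and 7.01 in the 143 and 83 non-cycling fibroblasts. Their trophocyte-like genes summed to 20.5 and 8.83 UMIs per 10000, against 32.2 and 40.9. The trophocyte-like direction was that of the stromal libraries, but 7 cells allow no test. These fibroblasts had passed a sort for EpCAM and held fewer UMIs than those of the stromal libraries.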

How the data were processed

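For each of 8 libraries made with Chromium 3′ kits, the authors deposited a matrix of UMI counts (32285 features by cell barcodes). Per the labels, reads were processed with Cell Ranger 6 on mm10. Per the file headers, the counts came from version 6.0.1 for the stromal and 7.1.0 for the epithelial libraries. Whether intronic reads were counted is not given in the sources used here.

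Barcodes under 500 genes or above 10% mitochondrial UMIs were dropped. UMIs were summed per library and class and tested with edgeR 4.0.16 (quasi-likelihood test, filterByExpr, TMM) in R 4.3.3 with the library as a block. This leaves 1 residual degree of freedom for 4 sums. Calls used a Benjamini-Hochberg adjusted p under 0.05 over all genes tested, and Mki67, Top2a, Col1a2 and Epcam were left out of the test. Standard errors are the log2 fold change divided by the root of F. The pairing comes from the design, as both classes of a pair share 1 library, and over 14759 genes the deviations of the 2 classes between libraries correlated with r = 0.676. The difference between fibroblasts and epithelium was the product term of class and compartment in 8 sums. Shares carry 95% exact binomial intervals. Thinned cells were drawn to 5000 UMIs. For the depth-matched fit, non-cycling cells were drawn to the UMI deciles of cycling cells in each library. No doublet caller was run.

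Members and gene lists were chosen with earlier results of these data known. Named genes were, per list, the 3 highest and 3 lowest log2 fold changes, with all telocyte-like and trophocyte-like genes, and outside the lists the 10 at each end that were called, had the same sign in both libraries and averaged at least 5 in log2 CPM, without mitochondrial, ribosomal protein, predicted and pseudogene names. Plk1, Cdc20, Cdk1, Mcm5, Mcm6, Hist1h1b, Hist1h1c, Cdkn2b, Cdkn2c, Cdkn2d, Ccne1, Ccne2, Pcna, Dcn, Fgf10, Flt4 and the members named to complete a short count were added after their values had been seen. On simulated data for the stromal contrast (14774 genes tested), edgeR recovered 89 of 100 genes changed 2-fold and 100 of 100 changed 4-fold, with 9 false calls. For the difference (17517 genes) it recovered 40 and 99 of 100, with 6 false calls. The simulated counts had the same spread for all genes, no difference between libraries beyond their size, and only 200 changed genes, all well counted. The real data differ in each of these, so the false calls are not an error rate of the real calls. Alternatives were DESeq2 1.42.0, RLE scaling, no filter on low counts, no block, other limits on cells, and each library left out. Tables used pandas 2.3.3, scipy 1.17.1 and numpy 2.4.6 under Python 3.11.15. Some genes that met the naming rule are not reported here.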

Additional observations from a re-analysis of the deposited data

Results flagged for a closer look

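The change from non-cycling to cycling cells differed between fibroblasts and epithelium for 3104 of 17935 genes by edgeR's test of the product term, and the 20 named below are the 10 at each end among called genes that averaged at least 5 in log2 CPM in the fibroblast sums and whose difference had the same sign for every pair of a fibroblast and an epithelial library, without predicted and pseudogene names. Genes below that level, such as Rspo1 (-4.44), lay further out. Values are differences of log2 fold changes, fibroblasts minus epithelium. The most positive were Tmem100 (4.57), Knl1 (4.22), Kif23 (3.94), Sgo2a (3.8), Pclaf (3.67), Pcdh19 (3.63), Prc1 (3.41), Nusap1 (3.07), Esco2 (3.06) and Ube2c (2.83). Of these, 8 are genes of chromosomes, the spindle or replication, whose levels in non-cycling epithelium were above those in non-cycling fibroblasts, as for Kif23 at 23.1 and 22.3 CPM in epithelium against 2.24 and 1.65 CPM in fibroblasts. Tmem100 and Pcdh19 were under 1 CPM in all 4 epithelial sums, and their differences were not called with depth-matched cells (2.78 and 1.18), nor was that of Prelp (-7.25). Of the 20 calls, 17 were lost with no replicate block, and those of Kif23, Prc1 and Sgo2a were kept in that fit. Like the whole count, the 20 calls depend more on stromal library 2 than on stromal library 1.

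The most negative were Csgalnact1 (-2.11), Icam1 (-2.09), Adamts2 (-2.05), Prelp (-1.93), Pde10a (-1.79), Mfap2 (-1.76), Cxcl10 (-1.66), Emilin1 (-1.65), Snhg12 (-1.38) and Dram1 (-1.36). Csgalnact1, an enzyme of chondroitin synthesis, stood at 47.7 and 53.2 CPM in non-cycling and 39.5 and 36.5 CPM in cycling fibroblasts, and at 1.46 and 0.785 against 5.66 and 2.43 CPM in epithelium. Icam1, an adhesion receptor, stood at 51.9 and 80.6 against 38.7 and 45.6 CPM in fibroblasts and at 4.69 and 3.53 against 12.2 and 12.6 CPM in epithelium. Without epithelial library 1, the calls of Adamts2 (-0.69), Mfap2 (-2.11), Pde10a (-0.62), Prelp (-1.19) and Pcdh19 (2.02) were lost.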

How the results depend on the processing

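With depth-matched cells 4232 of 13706 genes were called for fibroblasts, just inside 1.5 times of 6346. Of the 6346 calls, 3577 were kept there with the same sign. The fibroblast counts stayed within 1.5 times of 6346 with RLE scaling, no filter, stricter limits on cells and the deepest cells left out. They were lower with DESeq2 (3452 of 13882 genes with an adjusted p), with 4 assembloid libraries in 1 fit (3716), with no replicate block (2026) and with a change of at least 2-fold (1571), and ranged from 681 to 1296 when a stromal library was left out, which assumes that the lone library varies like the epithelial ones. The difference between compartments was called for 101 genes with no replicate block and for 0 to 4301 when 1 library was left out. The share of cycling fibroblasts in libraries 1 and 2 was 28.0% and 19.7% at 5% mitochondrial UMIs, 21.9% and 14.6% with 3 UMIs of each gene, 27.4% and 17.6% with 10 UMIs of Col1a2 and 20.1% and 12.8% after thinning. With depth-matched cells the difference was called for 2123 genes, 1265 positive and 858 negative, and 1449 of the calls with all cells were kept. Of 117 named genes, 52 lost their call with no replicate block, 33 with 4 assembloid libraries in 1 fit and 21 with DESeq2. In these fits the 1 that turned was Wnt4 (0.00 with no replicate block). With depth-matched cells 19 kept their direction but lost their call. Many of the named calls were also lost when a stromal library was left out. With depth-matched cells Bmp3 (0.66), Ccl2 (-0.50), Ccl8 (-0.37), Col5a3 (-0.40), Crabp1 (-1.58), Cxcl14 (0.00), Frzb (-0.09), Il1rl1 (-0.64), Lef1 (-0.36), Npm1 (0.03), Timp1 (-0.23), Tnc (-0.76), Tubb3 (-0.11) and Wnt4 (-0.70) turned, on the log2 scale. Of all 190 genes that met the naming rule and were tested in both fits, 25 turned, 8 of them to a call. Without a stromal library, Cd34 ranged from -0.19 to 0.30, Col5a3 from -0.09 to 0.51, Crabp1 from -0.30 to 1.13, Pttg1 from -0.15 to 0.01, Tnc from -0.24 to 0.62 and Wnt4 from -0.31 to 0.56, and without the deepest cells Cd34 (-0.01), Crabp1 (-0.05) and Tnc (-0.08) turned. The cause was not tested. The 7 cycling fibroblasts of the epithelial libraries were too few for a fit, so its alternatives were not run, and depth limits every share of cells with a UMI.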
